A study of Mus musculus with 28 samples.

Results

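Tail cells were compared with lung cells by RNA-seq of polyA-selected RNA, with 2 samples of each, which are 4 of the 28 samples of the series. The samples were chosen by their titles. Both groups carry the strain label C57BL/6, and no treatment is given for either. The study's methods instead name CD1, or CD1 mixed with C3H, as its wild-type background, so that the strain is not settled. Tail and lung were minced and dissociated with trypsin. The study took tails from postnatal pups and lungs from both pups and young adults, and the sample labels give neither the age nor the sex of the lung samples, so that age and tissue cannot be told apart here. Nor do they say whether the cells were sequenced fresh or after culture, or how many animals went into a sample. The samples of a group are biological replicates by the study's legend. Each p-value measures only the spread between samples of a group, estimated over the 10 samples fitted, which include cultured stem cells. It may not cover the variation between animals. For the comparison of positional genes, 2 samples each of tail pNSCs and lung pNSCs were used as well. These are peripheral neural stem cells, which the study grew as Nestin-reporter positive cultures from postnatal tail and from adult lung, so that age and organ cannot be told apart between them either.

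The tail of a young mouse is a column of vertebrae with cartilage growth plates, wrapped in tendon and segmental muscle and covered by skin with hair follicles. The lung is an endoderm-derived airway and alveolar epithelium set in a mesenchyme and a dense capillary bed, with many resident immune cells. *Hox* genes encode homeodomain transcription factors that lie in clusters and are used along the body axis in the order in which they lie on the chromosome, so that the genes at the one end mark anterior and those at the other end mark posterior levels. In bulk samples such as these, fewer cells of a type and less RNA per cell cannot be told apart.

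The files hold raw counts per gene. Total counts were 19766705 and 17246664 in the tail cells and 19364328 and 16700710 in the lung cells. Levels are given below in cpm, which are counts scaled to library size after TMM correction, for the first and the second sample of a group. The smallest amount taken as detectable, 3 counts in a library, stood for 0.157 to 0.193 cpm. A gene is called higher where edgeR's quasi-likelihood test gave a Benjamini-Hochberg adjusted p under 0.05 together with a log2 fold change of 1 or more in either direction. Where a group had no counts at all, the fold is a lower bound computed against 3 counts per library. Where a group had 1 to 3 counts, the ratio is given with its exact 95% interval, which covers counting error only. For many of the genes named, the adjusted p was too small to be represented and was computed as 0. Standard errors (SE) are the absolute log2 fold change divided by the square root of the test's F statistic. They are too small where a group had few counts.

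Tail and lung cells differed in a large part of the genes measured. Of 16948 genes tested, 3471 were called higher in tail cells (20.5%) and 3885 in lung cells (22.9%), so that 43.4% of all genes were called. The counts of each marker list below are read against these shares, and each list's median log2 fold change against that of all genes tested, 0.0066. Since the lists were chosen with earlier results of these data known, the counts describe them and are no independent test. Across genes, Pearson's r of the group means was 0.688 on quantile-normalized log2 values, against 0.990 between the tail samples and 0.993 between the lung samples. The 10 most abundant genes took 13.1% and 13% of the counts in the tail cells, against 4.9% and 4.89% in the lung cells.

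**Figure D1:**
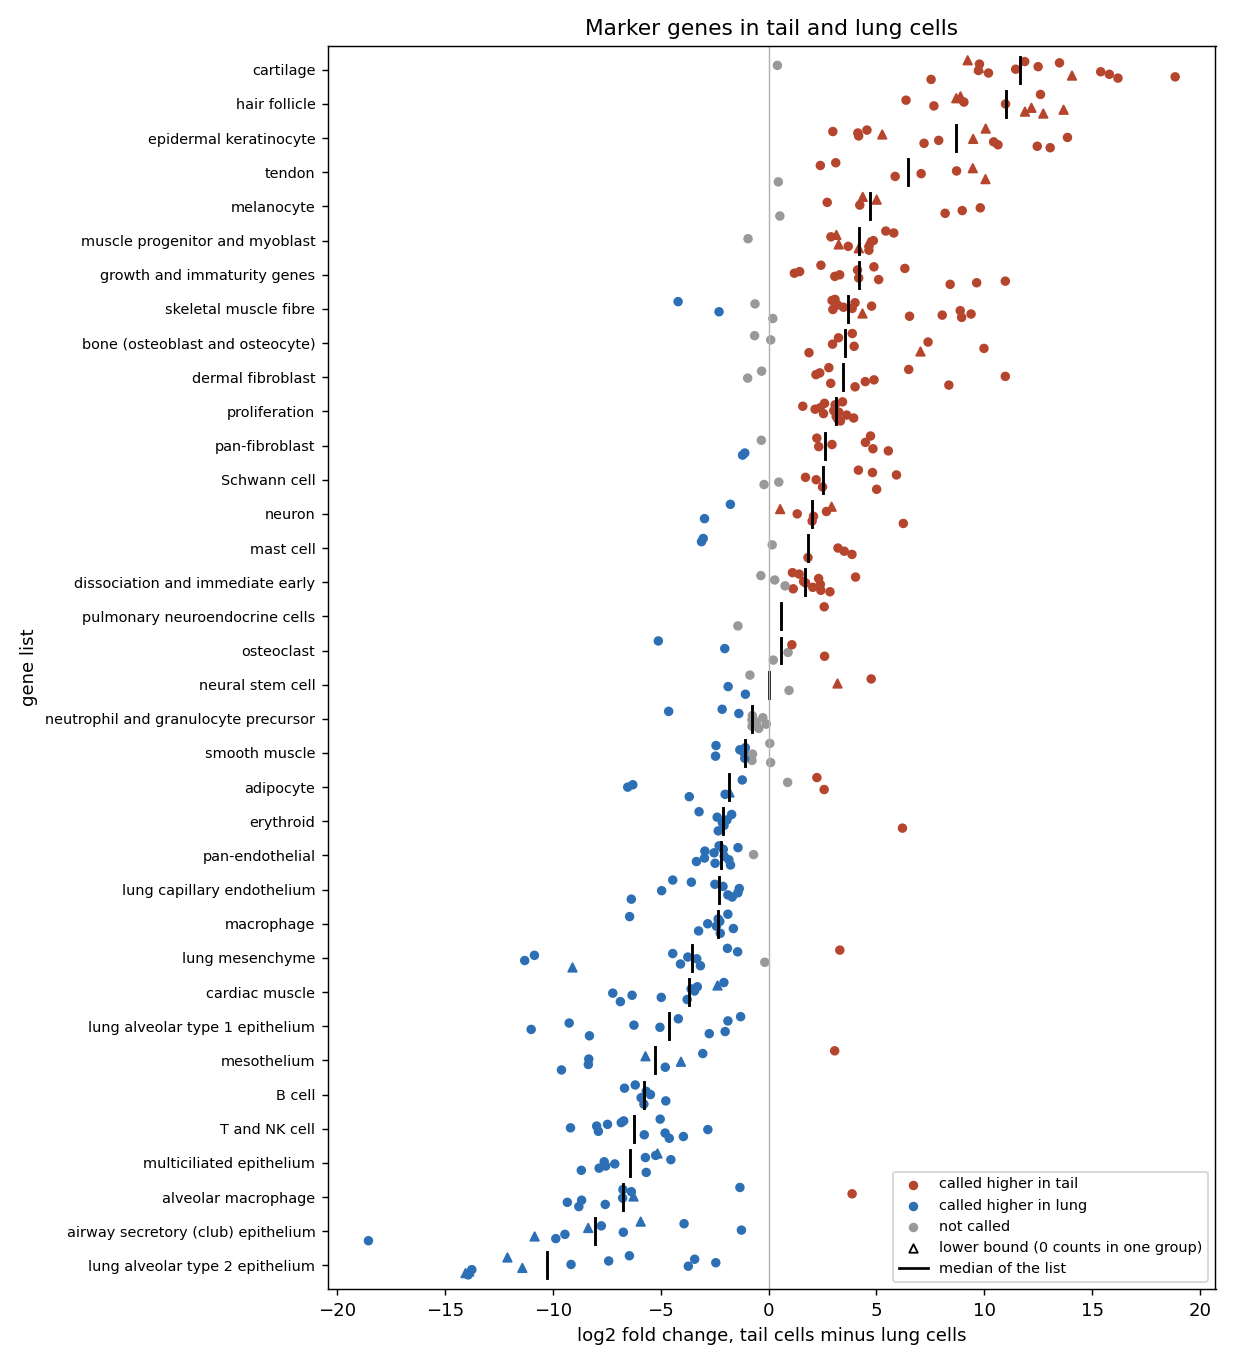
Log2 fold changes of tail cells over lung cells for the members of each gene list, with 1 point per gene and lists ordered by their median (black bar). Triangles are lower bounds for genes with no count in a group. Cartilage (median 11.66) and hair follicle genes (10.98) stand at the tail end, and alveolar type 2 (-10.28) and club cell genes (-8.05) at the lung end.

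Genes of alveolar type 2 and club cells had the lowest medians of the lists. All 12 genes of the alveolar type 2 list, cells that secrete surfactant, were called higher in lung cells, with a median log2 fold change of -10.28 when genes without tail counts are set at their bound. *Sftpc*, which encodes surfactant protein C, had 10320 and 10330 cpm in lung cells and 0.621 and 0.707 cpm in tail cells. This 15460-fold difference (log2 -13.92) rests on 11 counts in each tail sample, so that counting error limits its precision. *Sftpb*, surfactant protein B, had 3089 and 3002 cpm in lung cells and no counts in either tail sample, which makes it at least 16820-fold higher in lung. *Sftpa1* had 2686 and 2724 cpm and *Cldn18*, a tight junction gene, 792.9 and 794.2 cpm, again with no tail counts. These genes had no tail counts at all, while other members of the same list were also read in tail cells. *Abca3*, the transporter that loads surfactant lipid into lamellar bodies, had 47.1 and 43.3 cpm in tail cells against 601.9 and 590.6 cpm in lung cells, 13.2-fold. *Etv5*, a transcription factor with uses outside the lung, showed the smallest difference of the list, with 27.1 and 24.8 cpm against 141.7 and 141.3 cpm.

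The club cell list, secretory cells of the airways, held the gene with the largest difference in level toward lung. *Scgb1a1*, the club cell secretory protein, had 14150 and 13810 cpm in lung cells and 1 count in 1 of the tail samples, a ratio of 465700 (83580 to 18390000). All 10 members were called higher in lung cells. *Cyp2f2*, a club cell cytochrome P450, had 1599 and 1574 cpm against 2.2 and 2.38 cpm, and *Scgb3a2* had 332.2 and 330.9 cpm with no tail counts. Compared per kilobase of annotated exon, *Scgb1a1* reached 29400 cpm in lung cells, *Sftpc* 9980, *Sftpb* 1550 and *Sftpa1* 946. All 10 genes of the alveolar type 1 list were called too, but less far apart (median -4.61). *Ager*, the receptor that marks these flat gas-exchange cells, had 2039 and 2036 cpm in lung cells against 6.83 and 6.04 cpm. *Cav1*, which encodes caveolin and is also abundant in endothelium and fibroblasts, had 1404 and 1419 cpm against 577.5 and 572.9 cpm.

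Multiciliated cells carry motile cilia, and all 10 of their markers were called higher in lung cells. *Foxj1*, the transcription factor that sets up motile cilia, had 75.4 and 75 cpm in lung cells and 1.41 and 1.54 cpm in tail cells. The axonemal dynein gene *Dnah5* had 55.1 and 55.9 cpm against 0.226 and 0.579 cpm. Pulmonary neuroendocrine cells were barely seen at this depth. Of the 5 markers reported here, 2 were not tested and 2 were not called, and *Uchl1*, a ubiquitin hydrolase of neurons as well, was called higher in tail cells at 2.99 and 4.18 cpm.

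**Figure D2:**
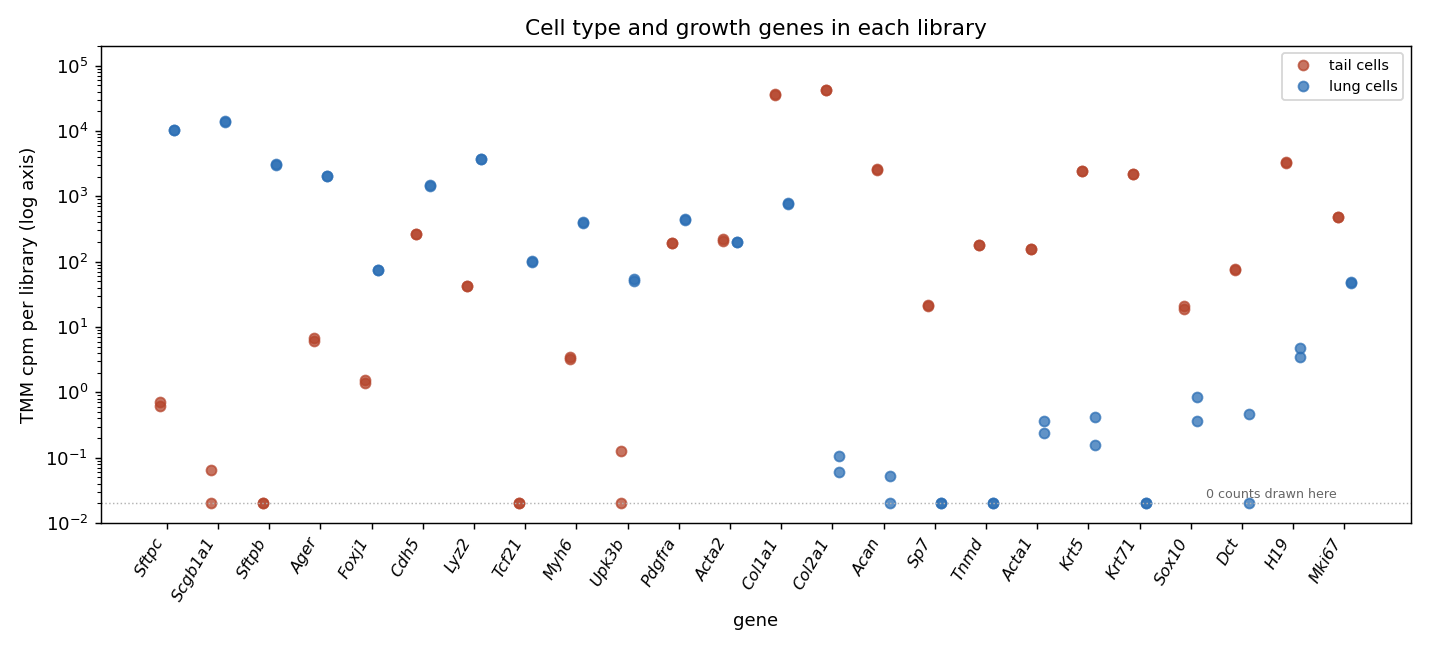
TMM cpm of 24 cell type and growth genes in each of the 4 libraries (log axis), with libraries without a count drawn on the dotted line. The samples of a group lie close together for abundant genes. *Sftpc* lies at 10320 and 10330 cpm in lung cells against 0.621 and 0.707 in tail cells, *Col2a1* at 42940 and 41930 cpm in tail cells against 0.105 and 0.0605 in lung cells, and *Acta2* near 200 cpm in both.

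Endothelial genes were present in both tissues and higher in lung. Of 12 pan-endothelial genes, 11 were called higher in lung cells (median -2.20) and *Emcn* was not called at a log2 fold change of -0.69. *Cdh5*, which encodes the endothelial cadherin, had 1472 and 1452 cpm in lung cells and 263.7 and 261.3 cpm in tail cells, 5.57-fold. All 10 genes of the lung capillary list were called higher in lung cells. The furthest apart was *Car4*, a carbonic anhydrase on the surface of a specialised alveolar capillary cell, with 166.9 and 169.8 cpm against 2.09 and 1.993 cpm. *Aplnr*, the apelin receptor, was the closest, with 245.9 and 245.4 cpm against 95.5 and 96.2 cpm.

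The lung mesenchyme list was mostly higher in lung. Of its 12 genes, 10 were called higher in lung cells, *Fgf10* was not called (23.2 and 22.4 cpm in tail cells, 25.1 and 26.5 cpm in lung cells), and *Gdf10* was called higher in tail cells, with 127.9 and 134.5 cpm against 13 and 13.6 cpm. *Fgf10* encodes the growth factor that drives branching of the lung bud and is also used in limb and skin. *Inmt*, a methyltransferase that is abundant in lung stroma, had 1574 and 1631 cpm in lung cells against 0.395 and 0.9 cpm, 2513-fold. *Npnt*, an integrin ligand of basement membranes, had 1464 and 1475 cpm against 163 and 166.6 cpm.

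Genes of cardiac muscle and of the pleural lining accompanied the lung. All 10 cardiac muscle genes were called higher in lung cells (median -3.68 with bounds). *Myh6*, the alpha cardiac myosin heavy chain, had 402.3 and 384.3 cpm in lung cells against 3.5 and 3.21 cpm, and *Myl7*, the atrial myosin light chain, had 71.6 and 73.7 cpm against 0.451 and 0.514 cpm. Cardiac muscle is known to line the pulmonary veins of the mouse. The source of the reads was not tested. Of 8 mesothelial genes, 7 were called higher in lung cells, led by *Msln*, mesothelin, at 52.7 and 49.6 cpm against 0.113 and 0.193 cpm. The exception was *Bnc1*, basonuclin 1, a zinc finger factor of basal keratinocytes too, with 40.9 and 38.9 cpm in tail cells against 4.6 and 4.96 cpm.

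Lymphocyte and macrophage genes were mostly higher in lung. Those of neutrophils lay on the same side but were mostly not called, and those of mast cells went both ways. All 12 T and NK cell genes and the 7 B cell genes reported here were called higher in lung cells, with medians of -6.24 and -5.78. *Ighm*, the IgM heavy chain, had 231.2 and 234.4 cpm in lung cells against 4.06 and 5.14 cpm. *Gzma*, a granule protease of killer lymphocytes, had 24.3 and 31.3 cpm against 0.113 and 0.193 cpm. The 9 macrophage genes reported here were called higher in lung cells. *Csf1r*, the receptor on which macrophages depend, had 191.3 and 184.2 cpm against 21.9 and 17.5 cpm. The 9 fold differences ran from 3.1-fold for *Cd68* to 86.8-fold for *Lyz2*, a lysozyme that alveolar type 2 cells also make.

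The alveolar macrophage list had 9 of 10 genes called higher in lung cells. *Chil3*, a chitinase-like secreted protein, had 359.2 and 382.5 cpm in lung cells against 0.734 and 0.386 cpm. *Krt79*, which was on this list and is also a keratin of the hair follicle and its sebaceous gland, had 634.6 and 609.1 cpm in tail cells against 41.2 and 43.9 cpm, and so made the summed level of the list similar in both tissues (653.4 and 626.5 cpm in tail, 741.5 and 769.5 cpm in lung). Of 10 neutrophil and granulocyte precursor genes, 7 were not called, 3 were called higher in lung cells and none in tail cells. The list's median log2 fold change was -0.76. *S100a9*, an abundant neutrophil calcium-binding protein, had 39.6 and 35.9 cpm in tail cells and 63.6 and 65.4 cpm in lung cells.

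Mast cell genes did not share a direction. The genes of connective tissue type granule proteases were called higher in tail cells: *Mcpt4* had 30.6 and 29.1 cpm against 2.2 and 1.88 cpm in lung cells, *Cma1* 28.6 and 27.6 cpm against 2.04 and 2.96 cpm, and *Tpsb2* and *Cpa3* lay on the same side. *Kit*, a receptor shared with melanocytes and endothelium, and *Hdc*, the histamine-producing enzyme, were called higher in lung cells. *Ms4a2*, the beta chain of the IgE receptor, was not called. Of 8 erythroid genes, 7 were called higher in lung cells. The exception was *Hba-a2*, whose sequence is nearly identical to that of *Hba-a1*, so that the split of reads between them is uncertain.

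Cartilage and hair follicle genes were the furthest from lung cells, and which of these lists leads depends on the bound. Of 16 cartilage genes, 15 were called higher in tail cells. The list's median was 11.66 with bounds, against 10.98 for hair follicle genes. Without bounds the medians were 12.98 for cartilage and 13.4 for hair follicle genes. *Col2a1*, the type II collagen of cartilage matrix (chromosome 15, 97975602 to 98004695, minus strand, GRCm38), had 42940 and 41930 cpm in tail cells and 0.105 and 0.0605 cpm in lung cells, from 2 and 1 counts, a ratio of 504900 (172800 to 2448000). *Col9a1*, a collagen that coats type II fibrils, had 2948 and 2849 cpm and no lung counts, which is at least 17140-fold. *Acan*, the large aggregating proteoglycan, had 2596 and 2571 cpm against 1 count in 1 lung sample. *Sox9*, the transcription factor that specifies cartilage, had 273.8 and 278.1 cpm in tail cells against 1.36 and 1.63 cpm in lung cells. Genes of the growth plate were included. *Col10a1*, the collagen of hypertrophic chondrocytes, had 758.3 and 758.9 cpm in tail cells against 0.105 and 0.302 cpm, and *Ihh*, the hedgehog ligand of prehypertrophic chondrocytes, had 56.4 and 59.3 cpm against 0.314 and 0.665 cpm. *Matn4* was the member not called, with 130.7 and 130 cpm in tail cells and 97.6 and 98.8 cpm in lung cells.

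Bone genes were mostly higher in tail. Of 12 osteoblast and osteocyte genes, 8 were called higher in tail cells, 2 were not called and 2 were not tested. *Sp7*, the osteoblast transcription factor osterix, had 22 and 21.2 cpm in tail cells and no lung counts. *Ibsp*, bone sialoprotein, had 120.8 and 119.1 cpm against 0.209 and 0 cpm. The markers of late stages differed among themselves. *Dmp1*, a matrix protein gene of osteocytes, had 11.2 and 9.71 cpm in tail cells against 0 and 0.121 cpm, while *Sost*, a product of mature osteocytes, was not called at 0.395 and 0.579 cpm in tail cells, and *Bglap*, osteocalcin, was not tested. The 8 osteoclast genes did not share a direction. *Ctsk*, the matrix protease cathepsin K, was called higher in tail cells at 131.7 and 121.2 cpm against 22.2 and 19.5 cpm, *Nfatc1* lay on the same side, and *Atp6v0d2* and *Dcstamp* were called higher in lung cells.

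Tendon genes were higher in tail in all but 1 case. Of 8 genes, 7 were called higher in tail cells. *Tnmd*, tenomodulin, had 181.7 and 176.9 cpm in tail cells and no lung counts, at least 1060-fold, and *Fmod*, the collagen-binding fibromodulin, had 1837 and 1862 cpm against 13.4 and 14.2 cpm. *Scx*, the early tendon transcription factor scleraxis, was not called, with 16.6 and 17.2 cpm in tail cells and 13.1 and 11.6 cpm in lung cells. One of the 7, *Egr1*, is also an immediate early gene and stood among the dissociation genes described below.

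Skin was represented by epidermis, hair follicle, dermis and pigment cells. All 14 keratinocyte genes were called higher in tail cells (median 8.68 with bounds), and DESeq2 did not call *Ivl*, involucrin (adjusted p = 0.165). *Krt5* and *Krt14*, the paired keratins of the basal layer, had 2462 and 2420 cpm and 1464 and 1423 cpm in tail cells, and at most 0.423 cpm in a lung sample. *Krt1* and *Krt10*, the pair of the suprabasal layers, had 634.9 and 634.2 cpm and 666.5 and 651 cpm. Among genes of the outermost cornified layer, *Flg*, filaggrin, had 6.66 and 6.36 cpm and *Lor*, loricrin, 7.62 and 6.75 cpm in tail cells. Per kilobase of exon, tail cells had 312 cpm of *Krt10* and 4.04 cpm of *Lor*.

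Hair follicle keratins made up 7 of the 10 genes with the largest fold difference toward tail. These were *Krt71*, *Krt25*, *Krt35*, *Krt33a*, *Krt27*, *Krt31* and *Krt73*, none of which had a count in a lung sample. *Krt71*, a keratin of the inner root sheath, had 2203 and 2200 cpm in tail cells, at least 13020-fold higher than in lung cells. The hair keratins *Krt31* and *Krt33a* are members of a family of similar sequences, and the handling of reads shared between copies is not given in the sources used here. Of the 12 genes of the hair follicle list, the 11 analysed here were all called higher in tail cells. They include *Tchh*, trichohyalin, at 1717 and 1632 cpm, and the hair shaft regulators *Foxn1* and *Hoxc13* at 69.3 and 71 cpm and 82.9 and 77.7 cpm, with no lung counts.

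The sequences before the start sites were searched for a feature that the choice of genes did not use, a TATA box. RefSeq gives start sites for 27025 genes, and the letters TATAAA were searched on the gene's own strand with the whole motif within bases 40 to 16 before the start. They were found in 2.41% of these genes. The share was 33.3% of the 9 keratinocyte genes with an entry, 25% of 8 hair follicle genes, 22.2% of 9 alveolar type 2 genes and 28.6% of 7 club cell genes. Other epithelial lists did not show it, since none of 9 alveolar type 1 genes and none of 8 multiciliated genes held the motif. Outside epithelium it was found in 33.3% of 6 mast cell genes, 33.3% of 6 neuronal genes, 20% of 10 alveolar macrophage genes, 18.8% of 16 muscle fibre genes and 0 of 22 *Hox* genes. The erythroid, bone, neutrophil, cartilage, growth and immediate early lists held it in 1 gene each, 8.33% to 16.7% of the genes with an entry. The pan-endothelial, T and NK cell, dermal fibroblast, cardiac muscle and Schwann cell lists, among others, held it in no gene with an entry. Of the genes tested, 12886 had an entry. The share was 4.97% of the 2535 called higher in tail cells, 2.96% of the 2834 called higher in lung cells and 1.13% of the 7517 not called. The lists are short and the shares are a description of these windows. Below are the 60 bases that end just before the start site in build GRCm38.p6, written 5′ to 3′ on the gene's strand, with TATAAA in capitals, first for the 9 genes of the keratinocyte, hair follicle, alveolar type 2 and club cell lists that held the motif and then for *Hoxa5* and *Hoxa9*, genes of 1 cluster that were higher in lung and in tail cells respectively and whose windows do not hold it.
Bpifa1 (chr2:154142820-154142879, plus strand): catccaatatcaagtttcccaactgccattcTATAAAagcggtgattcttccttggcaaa
Ivl (chr3:92573736-92573795, minus strand): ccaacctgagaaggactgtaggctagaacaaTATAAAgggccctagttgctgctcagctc
Krt10 (chr11:99389365-99389424, minus strand): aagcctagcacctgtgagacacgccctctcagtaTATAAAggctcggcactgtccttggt
Krt25 (chr11:99322952-99323011, minus strand): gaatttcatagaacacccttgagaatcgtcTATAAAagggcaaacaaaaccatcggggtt
Krt71 (chr15:101743098-101743157, minus strand): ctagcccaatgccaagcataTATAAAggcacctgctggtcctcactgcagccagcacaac
Lor (chr3:92083143-92083202, minus strand): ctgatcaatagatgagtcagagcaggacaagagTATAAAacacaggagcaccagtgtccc
Muc1 (chr3:89228996-89229055, plus strand): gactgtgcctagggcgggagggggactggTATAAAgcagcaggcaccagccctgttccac
Reg3g (chr6:78468875-78468934, minus strand): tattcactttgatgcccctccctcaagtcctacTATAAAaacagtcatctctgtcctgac
Sftpa1 (chr14:41131728-41131787, plus strand): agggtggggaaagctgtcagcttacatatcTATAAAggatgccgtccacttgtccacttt
Hoxa5 (chr6:52204588-52204647, minus strand): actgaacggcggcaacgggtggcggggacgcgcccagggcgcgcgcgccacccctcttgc
Hoxa9 (chr6:52227371-52227430, minus strand): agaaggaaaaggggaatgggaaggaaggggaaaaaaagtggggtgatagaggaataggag

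Of the genes printed, *Ivl*, *Lor* and *Krt10* belong to the epidermal list, *Krt25* and *Krt71* to the hair follicle list, *Sftpa1* and *Muc1* to the alveolar type 2 list, and *Bpifa1* and *Reg3g* to the club cell list. The first base of the motif lay 26 to 40 bases before the start, and *Krt71* was the farthest. *Sftpc*, *Scgb1a1*, *Col2a1* and *Hoxc13* were not among the entries used.

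Dermal fibroblast genes and melanocyte genes were also higher in tail. Of 12 dermal fibroblast genes, 10 were called higher in tail cells, while *Dpt* and *Runx1* were not called. *Dpt*, dermatopontin, had 81 and 80.7 cpm in tail cells and 156.1 and 160.3 cpm in lung cells, and its log2 fold change of -0.97 passed the limit, as higher in lung cells, with DESeq2 (-1.03), with RLE scaling and with the stricter filter. *Dlk1*, a surface protein of fetal and early postnatal stroma, had 695.3 and 684.1 cpm in tail cells against 0.418 and 0.242 cpm, 2011-fold. *Twist1*, a mesenchymal transcription factor, had 78.9 and 71.9 cpm against 0.261 and 0.181 cpm. Of 8 melanocyte genes, 7 were called higher in tail cells, among them *Dct*, an enzyme of melanin synthesis, at 76.4 and 73.8 cpm against 0.471 and 0 cpm, a difference that DESeq2 did not call (adjusted p = 0.056). *Mitf*, the factor that governs them and is used in other cells too, was not called.

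Skeletal muscle genes were mostly higher in tail. Of 20 muscle fibre genes, 14 were called higher in tail cells, 2 in lung cells, 2 were not called and 2 were not tested. *Acta1*, skeletal alpha actin, had 154.5 and 156.6 cpm against 0.366 and 0.242 cpm. *Myh8*, the perinatal myosin heavy chain, had 98.2 and 92.9 cpm and *Myh3*, the embryonic chain, 80.3 and 78.1 cpm in tail cells. Per kilobase of exon these chains of developing fibres stood at 8.12 and 13.1 cpm, above the adult fast chains *Myh1*, *Myh2* and *Myh4* at 0.91, 1.28 and 0.563 cpm. *Myh7* and *Mb*, which encode the slow myosin chain and myoglobin and are also expressed in heart, were the 2 genes called higher in lung cells. Of 11 myoblast genes, 10 were called higher in tail cells. *Myog*, myogenin, had 4.12 and 4.37 cpm in tail cells with no lung counts, and *Pax7*, the satellite cell factor, had 1.41 and 1.74 cpm.

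Schwann cell genes were mostly higher in tail. Of the 9 Schwann cell genes reported here, 7 were called higher in tail cells. *Mbp*, myelin basic protein, had 223.3 and 220.9 cpm in tail cells against 68.2 and 67.4 cpm in lung cells, and *Sox10*, the factor that specifies the lineage, had 21.1 and 18.9 cpm against 0.837 and 0.363 cpm. *Pmp22* and *Erbb3*, which many other cells express, were not called. Of 10 neuronal genes, 7 were called higher in tail cells and 2 in lung cells. Without the first lung sample these counts were 4 and 1, and without the second tail sample 1 was called higher in lung cells. The members with the most counts were *Tubb3* at 17.2 and 17.8 cpm in tail cells and *Stmn2* at 50.9 and 48.9 cpm in lung cells. Apart from these and *Prph*, the members had at most 0.283 cpm per kilobase of exon in either tissue, so that many of the calls rest on few counts. Neural stem cell genes had at most 1.54 cpm in either tissue apart from *Nes*, with 77.2 and 74.7 cpm in tail cells and 289.2 and 267.7 cpm in lung cells, *Sox2*, with 7.73 and 5.85 cpm and 14.3 and 14.5 cpm, and *Fabp7*, with 5.02 and 5.98 cpm in tail cells. Of the 9 genes of that list reported here, 3 were called higher in tail cells, 2 in lung cells and 4 were not called, the call of *Sox2* was lost without the second tail sample (log2 -0.90), and *Sox1* and *Nr2e1* had no counts in any of the 4 samples.

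Lists of stromal cells that both organs hold did not share a direction. Of 10 pan-fibroblast genes, 7 were called higher in tail cells. *Col1a1*, type I collagen, had 36520 and 35590 cpm in tail cells and 790.1 and 749.6 cpm in lung cells, 46.8-fold (log2 5.55 ± 0.03 SE), and *Col3a1* had 8885 and 8651 cpm against 1761 and 1740 cpm. The growth factor receptors *Pdgfra* and *Pdgfrb* went the other way, with *Pdgfra* at 192.3 and 193.4 cpm in tail cells and 441 and 448.8 cpm in lung cells. Per kilobase of exon, *Col1a1* reached 5490 cpm in tail cells, *Col2a1* 4590 and *Col1a2* 2200. Of 10 smooth muscle genes, 6 were called higher in lung cells and 4 were not called, among them *Acta2*, smooth muscle actin, with 218.7 and 208.7 cpm in tail cells and 200.1 cpm in each lung sample. Of 10 adipocyte genes, 6 were called higher in lung cells, *Fabp4* and *Car3* in tail cells, 1 was not called and 1 was not tested.

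The *Hox* genes called higher in lung cells lay in the anterior parts of HoxA and HoxB, while every HoxC and HoxD gene tested was called higher in tail cells. Of the 38 *Hox* genes reported here, 27 were called higher in tail cells, 6 in lung cells, 2 were not called and 3 were not tested. In the HoxA cluster (chromosome 6), *Hoxa2* to *Hoxa5* were all called higher in lung cells and *Hoxa6* to *Hoxa13* were all called higher in tail cells. In the HoxB cluster (chromosome 11), *Hoxb4* and *Hoxb5* were called higher in lung cells and *Hoxb6* to *Hoxb13* in tail cells, while *Hoxb2* and *Hoxb3* were not called. All 9 HoxC genes and the 7 tested HoxD genes were called higher in tail cells. *Hoxb1*, *Hoxd1* and *Hoxd12* had too few counts to be tested. DESeq2 did not call *Hoxc5* (adjusted p = 0.508), and *Hoxb2* was called higher in tail cells without the first lung sample (log2 1.23).

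*Hoxa5*, which the developing lung needs (chromosome 6, 52201754 to 52204587, minus strand), had 76.8 and 80.7 cpm in lung cells and 11.2 and 9 cpm in tail cells, 7.75-fold (log2 -2.95 ± 0.09 SE, edgeR adjusted p = 9.18e-249). It was the highest *Hox* gene in lung cells per kilobase of exon, at 41.9 cpm. *Hoxb4* had 26.1 and 25 cpm in lung cells and 12.4 and 11.5 cpm in tail cells. The anterior genes of HoxC and HoxD were near or under the detection limit in lung cells, such as *Hoxc4*, with 6.32 and 4.44 cpm in tail cells and 0.209 and 0.181 cpm in lung cells, and *Hoxd4*, with 4.74 and 5.85 cpm and a single count in each lung sample. Genes from group 9 to group 13 had at most 0.363 cpm in a lung sample. *Hoxa9* (chromosome 6, 52223100 to 52231089) had 42.2 and 40.8 cpm in tail cells and 1 count in 1 lung sample, a ratio of 1481 (265.4 to 58540). *Hoxb9* had 47.6 and 43.4 cpm and likewise a single lung count. *Hoxd11* had 40.2 cpm in each tail sample with no lung counts, at least 238-fold. *Hoxc13* (chromosome 15, 102921103 to 102928814), which is used in the hair follicle as well as in the axis, had 82.9 and 77.7 cpm, at least 475-fold, and *Hoxb13* had 40.1 and 34 cpm, at least 219-fold. Next to *Hoxa9* in the cluster, *Hoxa7* had 15.9 and 15 cpm in tail cells against 7.37 and 6.59 cpm in lung cells.

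**Figure D3:**
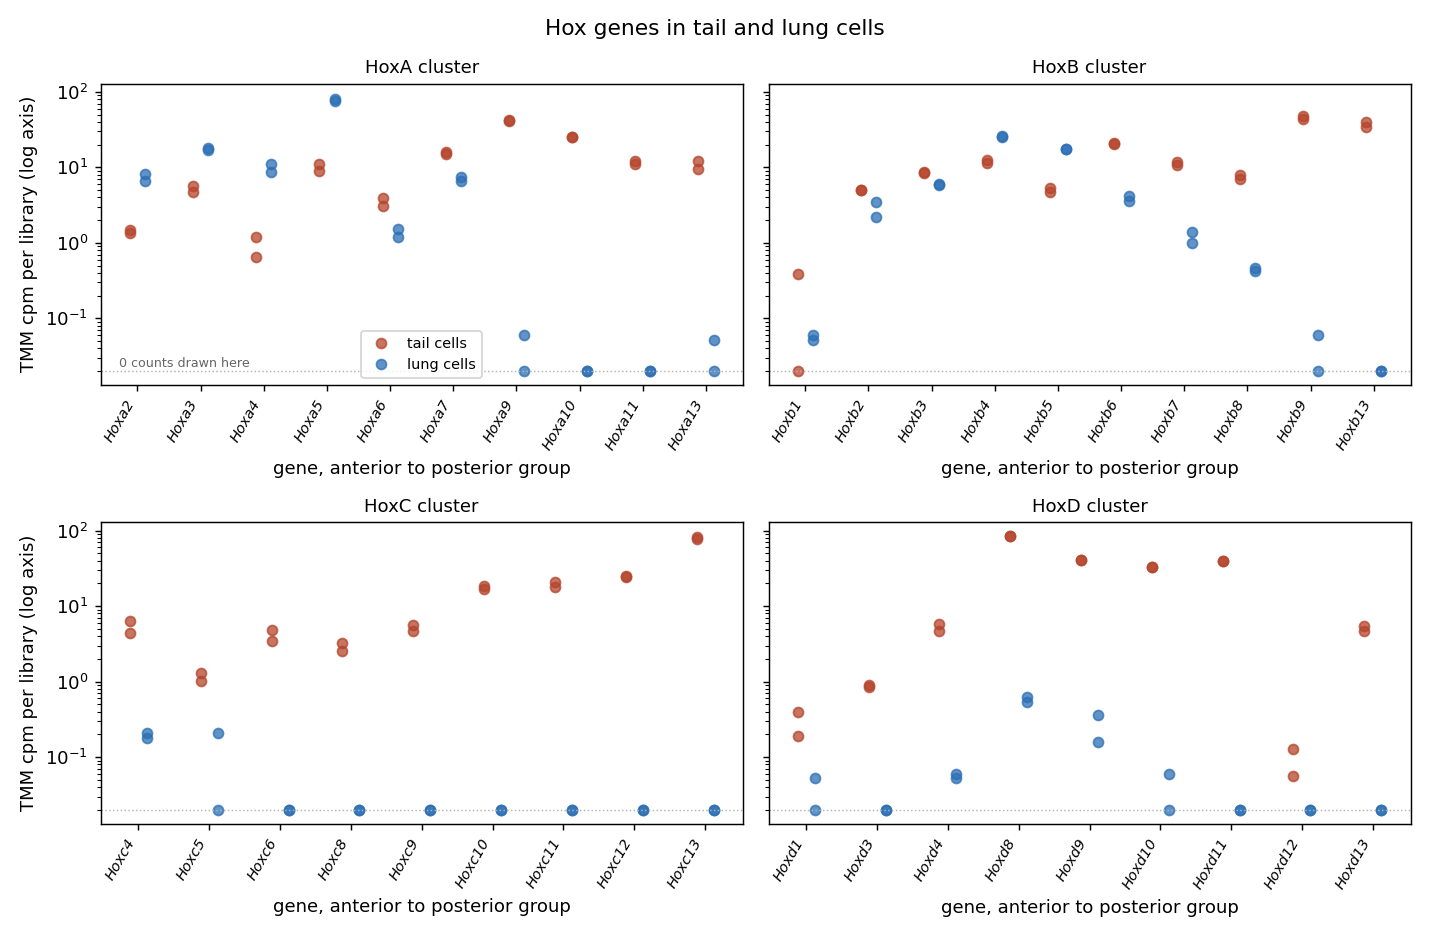
TMM cpm of the *Hox* genes in each of the 4 libraries (log axis), by cluster and in the order of their groups, with libraries without a count on the dotted line. Lung points lie above tail points from *Hoxa2* to *Hoxa5* and at *Hoxb4* and *Hoxb5*, and tail points lie above lung points from *Hoxa6*, *Hoxb6* and throughout HoxC and HoxD. *Hoxa5* reaches 76.8 and 80.7 cpm in lung cells and *Hoxd8* 84.9 and 84 cpm in tail cells.

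Several of these genes share exons with another gene in the annotation, namely *Hoxa2*, *Hoxa3*, *Hoxa9*, *Hoxc5* with *Hoxc10*, *Hoxd3* with *Hoxd4*, *Hoxd10* and *Hoxd11* on the same strand, and others overlap antisense transcripts. Whether the counting used strand is not given in the sources used here, so that their reads and those of the overlapping gene cannot be told apart.

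The proteins that bind DNA together with Hox proteins did not follow the posterior genes. Of 12 cofactor and caudal genes, none was called higher in tail cells in the edgeR fit, and 5 were called higher in lung cells, namely *Meis1*, *Meis2*, *Pbx3*, *Pbx4* and *Pknox2*. *Meis1*, a homeodomain cofactor, had 78.4 and 76.6 cpm in lung cells and 16.9 and 16.8 cpm in tail cells. *Cdx2* and *Cdx4*, the caudal factors that switch on posterior *Hox* genes in the embryo, had no counts in any of the 4 samples, and *Cdx1* had no count in a tail sample.

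Transcription factors of the lung and foregut were mostly higher in lung. Of 20, 15 were called higher in lung cells, 4 were not called and *Irx2* was called higher in tail cells. *Nkx2-1*, the factor that specifies lung endoderm (chromosome 12, 56531958 to 56536908), had 231.2 and 220.8 cpm in lung cells and no tail counts, at least 1248-fold. *Tcf21* and *Tbx5*, factors of the lung mesenchyme, had 99.7 and 103.2 cpm and 66.1 and 69.3 cpm in lung cells, with 0 and 1 counts in the tail samples together. *Tbx2* had 473.7 and 458.3 cpm against 19.1 and 18.9 cpm, and *Foxf1*, a factor of visceral mesoderm, 252.9 and 253.3 cpm against 13 and 10.2 cpm. *Irx2* had 121.1 and 122.8 cpm in tail cells against 61.4 and 57.7 cpm in lung cells, a log2 fold change of 1.03 that fell to 0.98 with DESeq2 and to 0.99 without the second lung sample, under the limit of 1.

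Transcription factors of somites, trunk, tail and limb showed the opposite. Of the 25 reported here, 17 were called higher in tail cells, 3 were not called, 4 were not tested and *Lmx1b* was called higher in lung cells at under 1 cpm, a call that was lost without the first tail sample (edgeR adjusted p = 0.124) or the second lung sample (0.134). *Pax1* and *Pax9*, factors of the sclerotome from which vertebrae arise, had 44.4 and 42 cpm and 8.8 and 12.4 cpm in tail cells, against at most 0.665 cpm in a lung sample. *Msx2* had 64.6 and 61.1 cpm and *Alx4* 62.4 and 65.8 cpm in tail cells, against 0.0523 and 0.181 cpm and 0.575 and 0.665 cpm in lung cells. *En1*, a homeodomain factor of ventral ectoderm and somite-derived dermis, had 16 and 16.1 cpm and *Zic1*, a factor of dorsal somite and neural tube, 11.3 and 9.9 cpm in tail cells, with no lung counts. *Zic1* overlaps *Zic4* on the opposite strand.

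Signals that pattern position did not share a direction. Of 26 signalling genes, 13 were called higher in tail cells, 6 in lung cells, 6 were not called and 1 was not tested. Of the enzymes that make retinoic acid, *Aldh1a1* had 832.2 and 859 cpm in lung cells against 0.79 and 1.61 cpm, and *Aldh1a3* had 64.3 and 67.6 cpm in tail cells against 1.52 and 0.968 cpm. Of the ligands, *Wnt2* and *Shh* were called higher in lung cells, and *Wnt5a*, *Bmp2*, *Bmp7* and *Ihh* in tail cells. *Bmp7* had 140.8 and 155.1 cpm in tail cells and 5.33 and 4.35 cpm in lung cells. The BMP antagonists *Nog*, *Chrd* and *Grem1* were also called higher in tail cells, with *Nog* at 25.8 and 23.2 cpm against 0.627 and 0.484 cpm. *Bmp4* was not called, with 48.3 and 58.4 cpm in tail cells and 69.8 and 68.2 cpm in lung cells.

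Fewer genes of all kinds were called between the pNSCs than between the tissues, positional genes among them. Between tail pNSCs and lung pNSCs, 12.9% of the genes tested were called, against 43.4% between the tissues. Of all genes tested, 5% were called higher in tail pNSCs and 7.86% in lung pNSCs. Of the 38 *Hox* genes, 14 were called higher in tail pNSCs and none in lung pNSCs by the edgeR fit, with 11 called higher in tail in both comparisons. Some of the 14 had under 1 cpm in tail pNSCs, such as *Hoxb2*, *Hoxb3* and *Hoxb7*. *Hoxb9* had 25.4 and 22.7 cpm in tail pNSCs and no counts in lung pNSCs. *Hoxd8* had 39.3 and 40.1 cpm in tail pNSCs and 1.34 and 1.69 cpm in lung pNSCs. The HoxC genes, all higher in tail cells than in lung cells, had at most 1 count in any pNSC sample. *Hoxa5* was not called between the pNSCs, at 20 and 21.2 cpm in tail pNSCs and 31.9 and 32.4 cpm in lung pNSCs. Of the lung factors, *Tbx2*, *Tbx3*, *Foxf1*, *Foxf2* and *Gata6* were called higher on the lung side in both comparisons, with *Tbx2* at 8.08 and 8.59 cpm in lung pNSCs and 0.705 and 0.625 cpm in tail pNSCs, and *Foxf2* and *Gata6* under 1 cpm in every pNSC sample. Across the 95 positional transcription factor genes reported here, 45 were called higher in tail cells and 27 in lung cells, and 17 were called higher in tail pNSCs and 15 in lung pNSCs. The tissue difference and the pNSC difference were called unequal by the interaction term of the edgeR fit for 38 of the 85 tested among them, against 30.7% of all genes tested. Of the 95, 17 had no counts in either pNSC group, and the term says nothing about them. Calls in opposite directions, with the term called as well, were found for 11 of the 85 positional genes tested and for 3.72% of all genes tested.

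**Figure D4:**
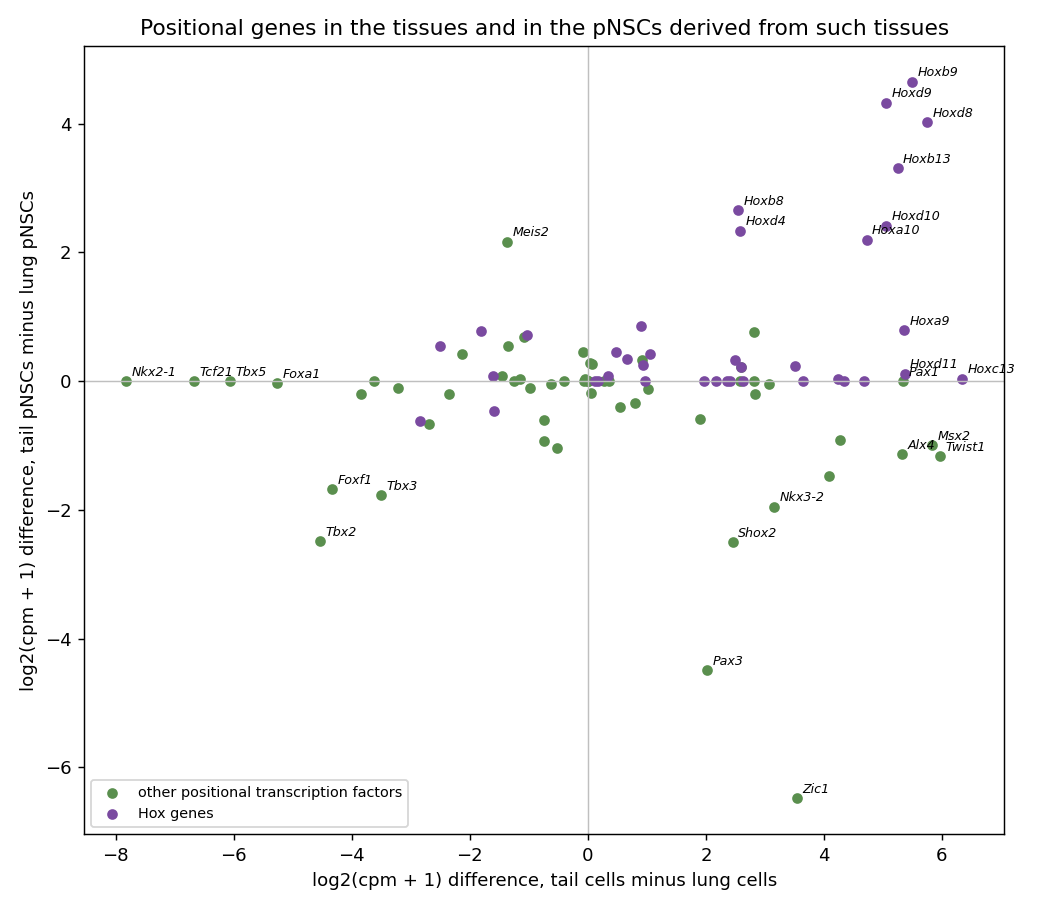
Difference between tail and lung cells (horizontal) against the difference between tail and lung pNSCs (vertical) for 95 positional genes, both as log2(cpm + 1) of the group means. Posterior *Hox* genes such as *Hoxb9* and *Hoxd8* lie at the upper right, many genes lie on the horizontal line because the pNSCs have few or no counts of them, and *Zic1* and *Pax3* lie at the lower right.

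Genes of growth and cell division were higher in tail, a difference that cannot be told apart here from those of cell type above. Of 14 growth and immaturity genes, 13 were called higher in tail cells and 1 was not tested (median 4.18). *H19*, an imprinted RNA that falls after birth, had 3351 and 3286 cpm in tail cells against 4.71 and 3.51 cpm, 798.8-fold. *Igf2*, the fetal growth factor beside it, had 145.7 cpm in each tail sample against 0.314 and 0.544 cpm. All 14 proliferation genes were called higher in tail cells (median 3.11), with *Mki67*, the cycling cell marker, at 475.6 and 487.3 cpm against 46.6 and 49.4 cpm. Of 14 dissociation and immediate early genes, 11 were called higher in tail cells and 3 were not called. *Fos* had 4419 and 4433 cpm in tail cells and 612.8 and 619.2 cpm in lung cells, and the summed level of the list was 17360 and 17410 cpm against 4925 and 4955 cpm. The part of age, of cell division and of the handling of the tissue in the differences described here was not tested.

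The samples also differed in sex-linked RNA. Of 5 genes, *Ddx3y*, *Uty*, *Kdm5d* and *Eif2s3y*, which lie on the Y chromosome, were called higher in tail cells and had no counts in either lung sample, with *Ddx3y* at 51.6 and 48.1 cpm in tail cells. *Xist*, the RNA of the inactive X chromosome, was not called, with 863.9 and 883 cpm in tail cells and 638.4 and 678.9 cpm in lung cells. Both tail samples thus held Y-linked reads beside *Xist* reads and the lung samples held *Xist* reads alone, so that sex and tissue cannot be told apart.

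Beyond the lists, the genes with the largest difference in level included the matrix protein gene *Sparc*, with 7995 and 7933 cpm in tail cells against 2626 and 2597 cpm in lung cells, and the translation factor gene *Eef1a1*, with 4915 and 4962 cpm against 1844 and 1841 cpm. Toward lung they included *Gsn*, gelsolin, with 3842 and 3851 cpm against 592.7 and 588.5 cpm, *Epas1*, the hypoxia-inducible factor of endothelium, with 2577 and 2297 cpm against 198.4 and 192.2 cpm, and *Sptbn1*, a spectrin. Among the largest folds toward lung were also *Sec14l3*, with 1235 and 1258 cpm and no tail counts, *Hc*, complement C5, with 1148 and 1138 cpm and 1 tail count, and *Sfta3-ps*, a neighbour of *Nkx2-1*, with 265.2 and 267.5 cpm and no tail counts.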

How the data were processed

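PolyA-selected RNA of tail cells and lung cells was sequenced with 2 samples each. Per the labels and the study's methods, the authors used HISAT2 to align single-end reads to GRCm38, Cufflinks for annotation and HTSeq to count reads per gene, so that the deposited values are raw counts with no normalization. The strand setting, the counting mode and the annotation release are not given in the sources used here. Groups were compared with edgeR 4.0.16 under R 4.3.3 (filterByExpr with a minimum count of 10 and a minimum total of 15, TMM scaling, quasi-likelihood test) over the 10 samples of 5 groups, which share 1 estimate of the spread: tail cells, lung cells, tail pNSCs, lung pNSCs and brain NSCs. The other 18 samples were not fitted. P-values are two-sided and adjusted by Benjamini-Hochberg over all 16948 genes tested. The assignment of the tissue samples to these 5 groups follows their titles and the study's legend.

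Genes were named by a rule: members of fixed lists, with the most abundant and the defining ones named; the 10 largest absolute log2 fold changes in each direction among genes called with a mean of at least 50 cpm in the higher group and no overlap; and the 10 largest differences in cpm in each direction. A few list members are not reported here and are left out of the list counts. The members and lists were chosen with earlier results of these data known. Pearson's r used quantile-normalized log2(count + 1) values and carries no p-value. Gene positions, exon lengths and overlaps came from GENCODE M21 by symbol for 500 of 501 genes looked up, and promoter windows from RefSeq.

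Squared differences between samples of a group were 1.66 (tail) and 1.84 (lung) times those of counting error, and edgeR's common biological coefficient of variation was 0.0258. The samples of a group thus differed little beyond counting error, and the p-values may not cover the variation between animals. The same replicate number in tail and lung did not mark samples that deviate together (r = 0.0116). On simulated data with 200 genes changed by a log2 fold change of 2 among 16237, the tail against lung fit recovered 200 with 1 false call. The counts were drawn from the model that the fit assumes, with as many genes raised as lowered. The run thus checks the code and not the error rate in the real data, where 43.4% of genes were called. Alternatives were DESeq2 1.42.0, other scalings and filters, a fit of only tail and lung, the replicate block, no fold limit and leaving out each sample. Figures were drawn with matplotlib 3.10.9 under Python 3.11.15.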

Additional observations from a re-analysis of the deposited data

Results flagged for a closer look

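For 11 positional genes the difference between tail and lung cells and the difference between tail and lung pNSCs were both called and had opposite directions, and the interaction term of the edgeR fit was called for each. These were 11 of the 85 positional genes tested, against 3.72% of all genes tested, while among the 329 cell type genes tested 20 were called higher in tail cells and in lung pNSCs and 15 higher in lung cells and in tail pNSCs. Opposite calls were thus not shown to be particular to positional genes. Higher in tail cells but higher in lung pNSCs were *Alx4* (adjusted p of the interaction 9.22e-152), *En1* (2.3e-104), *Msx2* (1.48e-69), *Nkx3-2* (3.41e-71), *Pax3* (1.35e-109), *Shox2* (8.9e-71), *Tbx15* (9.13e-100), *Twist1* (2.06e-167) and *Zic1* (computed as 0). *Zic1* had 88.4 and 88.3 cpm in lung pNSCs and no counts in tail pNSCs, against 0 and 11.3 and 9.9 cpm in lung and tail cells. *Pax3* had 22.9 and 20.2 cpm in lung pNSCs and none in tail pNSCs. Higher in lung cells but higher in tail pNSCs were *Meis2* (1.82e-243), with 80.3 and 83.8 cpm in tail pNSCs and 18.3 and 16.8 cpm in lung pNSCs, and *Hoxb4* (2.8e-11), with 0.597 and 0.673 cpm in tail pNSCs and no counts in lung pNSCs. The tissue and pNSC groups share no sample, and no explanation was tested.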

How the results depend on the processing

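Most summary values moved by less than 1.5 times under the alternatives. With no limit on the fold change, 7020 genes were called higher in tail cells and 6890 in lung cells, in place of 3471 and 3885. With only genes of a mean count of at least 100 tested, 10 *Hox* genes were called higher in tail cells, because fewer *Hox* genes were tested. Spearman's coefficient between tail and lung cells was 0.767 and Pearson's r over all genes with a count was 0.834, against 0.688. Leaving out 1 sample gave 3416 to 3483 genes higher in tail cells, 3759 to 3937 in lung cells, 27 to 28 *Hox* genes higher in tail cells and 6 in lung cells; the lone sample is then assumed to vary like the other groups. With the replicate block, 3446 and 3838 genes were called, the *Hox* counts stayed at 27 and 6, and the cell type lists held 133 genes higher in tail cells and 159 in lung cells, the same counts as without it. The labels do not say that a replicate number marks a shared animal or batch. No scaling moved the median log2 fold change of all genes by more than 0.1. Of the counts for single lists under an alternative, 32 moved by over 1.5 times and 760 did not; 17 of the 32 came with the stricter filter, which tested fewer genes. Of the values for genes named, 10 fell below a threshold, for *Dct*, *Hoxc5* and *Ivl* with DESeq2 and for *Irx2*, *Lmx1b* and *Sox2* under one or more settings, and 18 rose above one, mostly with no fold limit. The cause was not tested. The mast cell gene *Ms4a2*, which was not called at a log2 fold change of 0.17, gave -0.12 to 0.39 when 1 sample was left out. Groups of 2 samples limit every test here, and a gene under about 3 counts per library could not be told from one that is absent.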
